A study of Mus musculus with 35 samples.

Results

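Quadriceps muscle of mice that had received 4 doses of ActRIIB-Fc was compared with quadriceps of Mstn-null mice. The comparison rests on 19 of the 35 arrays of the series, chosen by their titles: 8 arrays of the 4-dose class (3 in experiment 1 and 5 in experiment 2) and 11 of the Mstn-null class (3 and 8). The 8 control arrays served as the baseline, and the 8 arrays of a 1-dose class entered the fit as a further class. All mice were female and 2 months old, and the titles number the samples as biological replicates. The labels give no strain, no amount, route or interval of the doses, and no description of the null allele beyond its name. They name no allele or agent that all classes carry. The comparison sets repeated blockade of ligands against loss of the gene for one of them.

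Myostatin, the product of Mstn, is secreted by muscle fibres and limits their growth. It binds activin type II receptors, which with a type I receptor phosphorylate Smad2 and Smad3. ActRIIB-Fc joins the ligand-binding part of the type IIB receptor to an antibody tail, circulates as a decoy, and can bind activins and Gdf11 as well as myostatin. A Mstn-null mouse lacks myostatin alone, and lacks it from before birth.

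Values are log2 expression levels, so a difference of 1 is a 2-fold change, and differences below are 4 doses minus Mstn-null with the standard error of a fit over both experiments. Adjusted p-values are from limma with Benjamini-Hochberg adjustment over 19938 genes, and a gene was called below 0.05. Levels of experiment 1 and experiment 2 are on different footings, with array medians from 4.39 to 4.52 and from 6.07 to 6.27 on these arrays, and are given separately. The number of arrays limits the precision. The 12 skeletal muscle markers averaged 11.28 to 11.39 in experiment 1 and 12.91 to 13.42 in experiment 2. The 10 cardiac markers, which include Myh6, Nppa, Tnni3 and Myl7, averaged 4.30 to 4.67 and 5.93 to 6.26, close to the array medians.

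The classes differed at 4019 genes (20.2% of those tested), 2275 higher after 4 doses (11.4%) and 1744 lower (8.75%). The higher genes made up 56.6% of the calls, and 74.0% (2522 higher, 886 lower) once each array was centred on its median. A difference of at least 2-fold was found at 84 of them (0.421%), 77 higher (0.386%) and 7 lower (0.0351%). Each class was also set against the same 8 controls: 8337 genes (41.8%) were called for Mstn-null muscle and 626 (3.14%) after 4 doses. In 123 genes (0.617%) every array of one class lay on one side of every array of the other in both experiments, 91 higher after 4 doses (0.456%) and 32 lower (0.16%).

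The arrays themselves differed in width. The interquartile range of a 4-dose array was 2.52, 2.70 and 2.22 in experiment 1 and 2.70, 2.45, 2.26, 2.48 and 2.62 in experiment 2. Mstn-null arrays had 2.39, 2.41 and 2.44 in experiment 1, and a lowest value of 2.14 and a highest of 2.42 in experiment 2. The classes overlapped in both experiments. The 4-dose arrays were wider by 0.174 on average (two-sided exact permutation test within experiments, p = 0.0237). Once each array's width entered the fit as a covariate, 394 genes (1.98%) were called, 219 higher (1.1%) and 175 lower (0.878%). Without the 4 narrowest Mstn-null arrays of experiment 2 (replicates 2, 6, 7 and 8, ranges up to 2.22, a choice made after seeing the ranges) 827 genes (4.15%) were called, 552 higher (2.77%) and 275 lower (1.38%). The difference also moved with level: of the 1994 brightest genes 694 were higher after 4 doses and 115 lower, and of the 1993 in the fourth of 10 level bins 62 were higher and 245 lower. Quantile normalization within each experiment, which gives all arrays of an experiment the same width, left 3242 genes called (16.3%), 1689 higher (8.47%) and 1553 lower (7.79%). Most groups of genes below are given with their counts under the covariate and under quantile normalization. The shares of all genes above are the background for these counts. In experiments 1 and 2 control arrays had mean ranges of 2.62 and 2.56. Mstn-null arrays had 2.42 and 2.28, and 4-dose arrays 2.48 and 2.50. Counts and differences against control come from the fit without the covariate. The part of array width in them was not tested. A gene described as lasting was called both with the covariate and without the 4 narrowest arrays. Where leaving out 1 array moved a group's count by more than 1.5 times, that array is named or the range of counts is given.

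**Figure D1:**
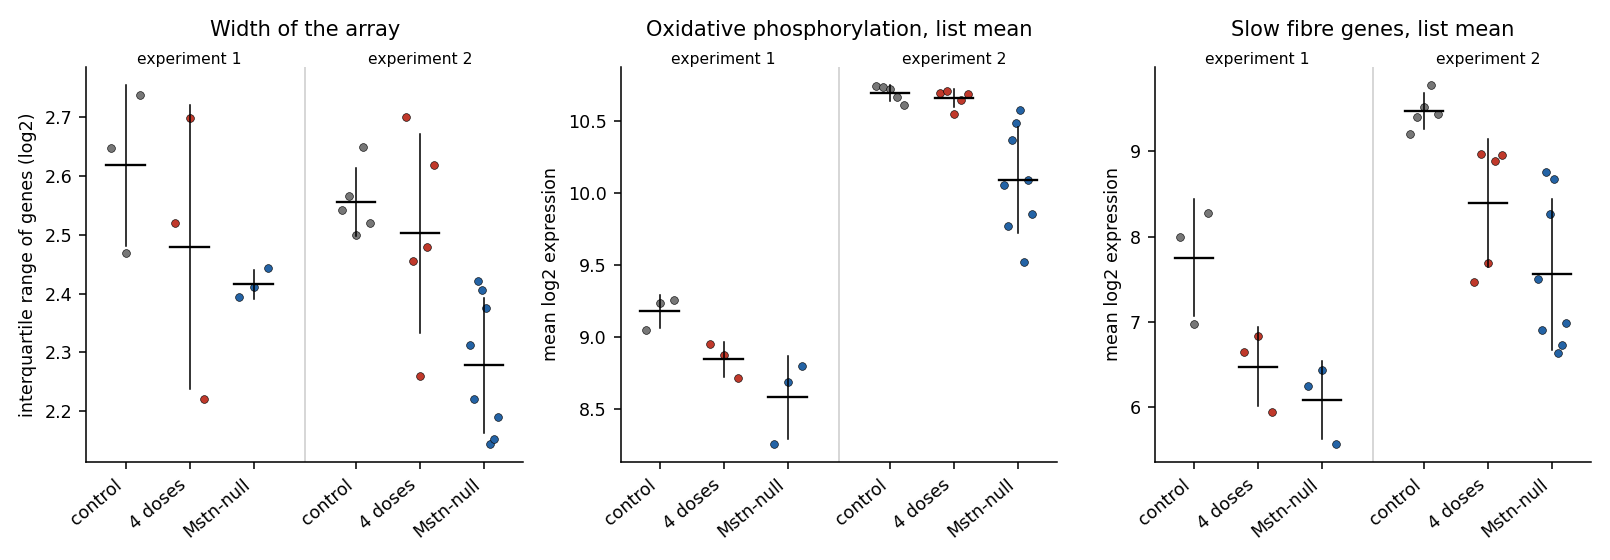
Interquartile range over genes of each array (left), mean log2 level of the oxidative phosphorylation list (middle) and of the slow fibre list (right), by class and experiment; points are arrays, bars are means and vertical lines are SD. In experiment 2 the Mstn-null arrays reach down to an interquartile range of 2.14 and an oxidative phosphorylation mean of 9.53.

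Mstn separated the classes. In experiment 1 its level was 7.58, 8.47 and 6.86 after 4 doses and 6.69, 5.78 and 5.95 in Mstn-null muscle. In experiment 2 it was 10.23, 10.26, 10.69, 10.40 and 10.79 after 4 doses, and 6.29 to 7.84 (median 7.31) in Mstn-null muscle. No array of one class reached the other in either experiment. Mstn was 6.43-fold higher after 4 doses (log2 2.69 ± 0.23, adjusted p = 1.27e-09), by 1.5 in experiment 1 and by 3.22 in experiment 2, a gap between experiments that did not pass (adjusted p = 0.150). Control arrays lay from 6.77 to 7.68 and from 9.84 to 10.21. Where the probes lie in the gene was not analysed here.

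Other genes of the pathway had smaller differences than Mstn. Of 19 measured activin, myostatin and BMP ligands, Mstn among them, 3 were higher and 2 lower, beside 11.4% and 8.75% of all genes. The median difference was -0.05, beside -0.06 over all genes. Under quantile normalization 2 were higher and none lower, and with the covariate 1 (Mstn) and none. Without 4-dose replicate 1 of experiment 2 the number called was 2. Without replicate 5 of that experiment the members Inhbe and Tgfb2 were no longer called. Gdf11, a close relative of myostatin that the decoy also binds, differed by 0.22 ± 0.09 (adjusted p = 0.0595), and against control it was higher in both classes, by 0.59 ± 0.09 after 4 doses (adjusted p = 7.1e-05) and by 0.37 ± 0.09 in Mstn-null muscle (adjusted p = 0.00122). Inhba, which encodes an activin subunit, differed by -0.02 ± 0.09. Bmp5 was higher after 4 doses by 0.63 ± 0.15 (adjusted p = 0.00354), but not with the covariate (adjusted p = 0.143).

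Of 21 receptors and Smads 1 was higher and 5 were lower after 4 doses, beside 11.4% and 8.75% of all genes. The list's median was -0.10, and -0.27 under quantile normalization. With the covariate none was higher and 2 were lower. Under quantile normalization 1 was higher and 7 were lower, beside 8.47% and 7.79% of all genes. Without 4-dose replicate 5 of experiment 2 the number called was 3. Smad3, which carries the activin and myostatin signal to the nucleus, was 7.25, 7.22 and 7.05 after 4 doses against 7.27, 7.33 and 7.51 in Mstn-null muscle of experiment 1. In experiment 2 it was 8.77, 8.81, 8.57, 8.81 and 8.68 against 8.99 to 9.47 (median 9.34). Every 4-dose array was below every Mstn-null array of its experiment, and the difference of -0.43 ± 0.08 (adjusted p = 0.000735) lasted in both settings. Neither class was called against control at Smad3, with -0.24 ± 0.09 after 4 doses (adjusted p = 0.153) and 0.19 ± 0.08 in Mstn-null muscle (adjusted p = 0.0629).

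Acvr2b, the gene of the receptor from which the decoy is made, was lower by 0.29 on the log2 scale after 4 doses (-0.29 ± 0.09, adjusted p = 0.0205). It was not called with the covariate (adjusted p = 0.168) or without 4-dose replicate 5 of experiment 2. Acvr2a, the other type II receptor, differed by -0.10 ± 0.13 (adjusted p = 0.555). Among 14 extracellular antagonists 1 was higher and 3 were lower, beside 11.4% and 8.75% of all genes. None was called with the covariate, and 1 was higher under quantile normalization. The 4 called antagonists became 2 without 4-dose replicate 1 and 1 without replicate 5 of experiment 2. Fst (follistatin) differed by -0.01 ± 0.06 and Fstl3 by -0.08 ± 0.08, neither called. Of 20 Smad and BMP feedback targets 2 were higher and 1 lower, beside 11.4% and 8.75% of all genes, with a median of -0.03. With the covariate 1 was higher and 1 lower, and under quantile normalization 2 and 2. The 3 calls ranged from 2 to 6 on leaving out 1 array. Smad7, another member, differed by -0.071 to -0.0041 on leaving out 1 array. Pmepa1, a feedback inhibitor induced by Smad signalling, was lower after 4 doses (-0.32 ± 0.09, adjusted p = 0.0137) in both settings as well. It was also lower than control after 4 doses (-0.44 ± 0.10, adjusted p = 0.00705), while the Mstn-null difference of -0.11 ± 0.09 was not called. Id2, a BMP target, was higher by 0.57 ± 0.10 (adjusted p = 0.000209).

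Igf2, a fetal growth factor and imprinted gene, was among the clearest differences. In experiment 1 its level was 7.43, 7.30 and 7.75 after 4 doses and 6.37, 6.52 and 6.26 in Mstn-null muscle. In experiment 2 it was 9.39, 9.75, 9.80, 9.23 and 9.53 after 4 doses and 8.00 to 8.62 (median 8.20) in Mstn-null muscle. The classes did not overlap, and Igf2 was 2.29-fold higher after 4 doses (log2 1.2 ± 0.09, adjusted p = 1.01e-10). The difference was 1.11 in experiment 1 and 1.26 in experiment 2, and 1.24 with the covariate. Both classes exceeded control, by 1.55 ± 0.10 after 4 doses and by 0.36 ± 0.09 in Mstn-null muscle (adjusted p = 2.84e-13 and 0.00317).

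Of 17 imprinted growth genes 5 were higher after 4 doses and none lower, beside 11.4% and 8.75% of all genes. The list's median was 0.12, and 3 were higher both with the covariate and under quantile normalization. With the covariate those 3 were Igf2, Mest and Cdkn1c. Mest, expressed from the paternal copy in the embryo, was 4.64, 5.16 and 4.27 against 4.02, 4.12 and 3.74 in experiment 1, and 7.14, 6.89, 6.76, 7.21 and 7.42 against 5.68 to 6.12 in experiment 2. Cdkn1c, an inhibitor of cyclin-dependent kinases, was 7.25, 7.10 and 7.10 against 6.54, 6.52 and 6.37, and 9.05, 9.05, 8.82, 8.87 and 8.93 against 7.87 to 8.49. Neither gene overlapped between classes in either experiment. The differences were 1.04 ± 0.11 for Mest (adjusted p = 3.22e-08) and 0.78 ± 0.07 for Cdkn1c (adjusted p = 1.33e-09). Against control both rose after 4 doses, by 1.09 ± 0.11 and 0.78 ± 0.07, and in Mstn-null muscle they differed by 0.05 ± 0.11 and 0.00 ± 0.07, not called.

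The insulin-like growth factor and AKT list, which counts Mstn as a member, was mixed. Of 29 members 5 were higher and 8 lower (beside 11.4% and 8.75% of all genes), with a median of -0.16. With the covariate 2 were higher (Mstn and Igf2) and 1 lower, and under quantile normalization 3 and 15. The 13 calls became 8 without 4-dose replicate 5 of experiment 2. Igf1 differed by 0.36 ± 0.15 (adjusted p = 0.0864). Ddit4, an inhibitor of mTOR that stress hormones induce, was lower after 4 doses by 0.99 on the log2 scale (-0.99 ± 0.26, adjusted p = 0.00844), without a call under the covariate (adjusted p = 0.0923). Grb14, an adaptor that restrains the insulin receptor, was higher after 4 doses by 0.70 ± 0.08 (adjusted p = 3.32e-07) in both settings as well. Grb14 was lower than control in Mstn-null muscle (-0.86 ± 0.08, adjusted p = 5.06e-09), while the 4-dose class differed from control by -0.16 ± 0.09, not called.

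**Figure D2:**
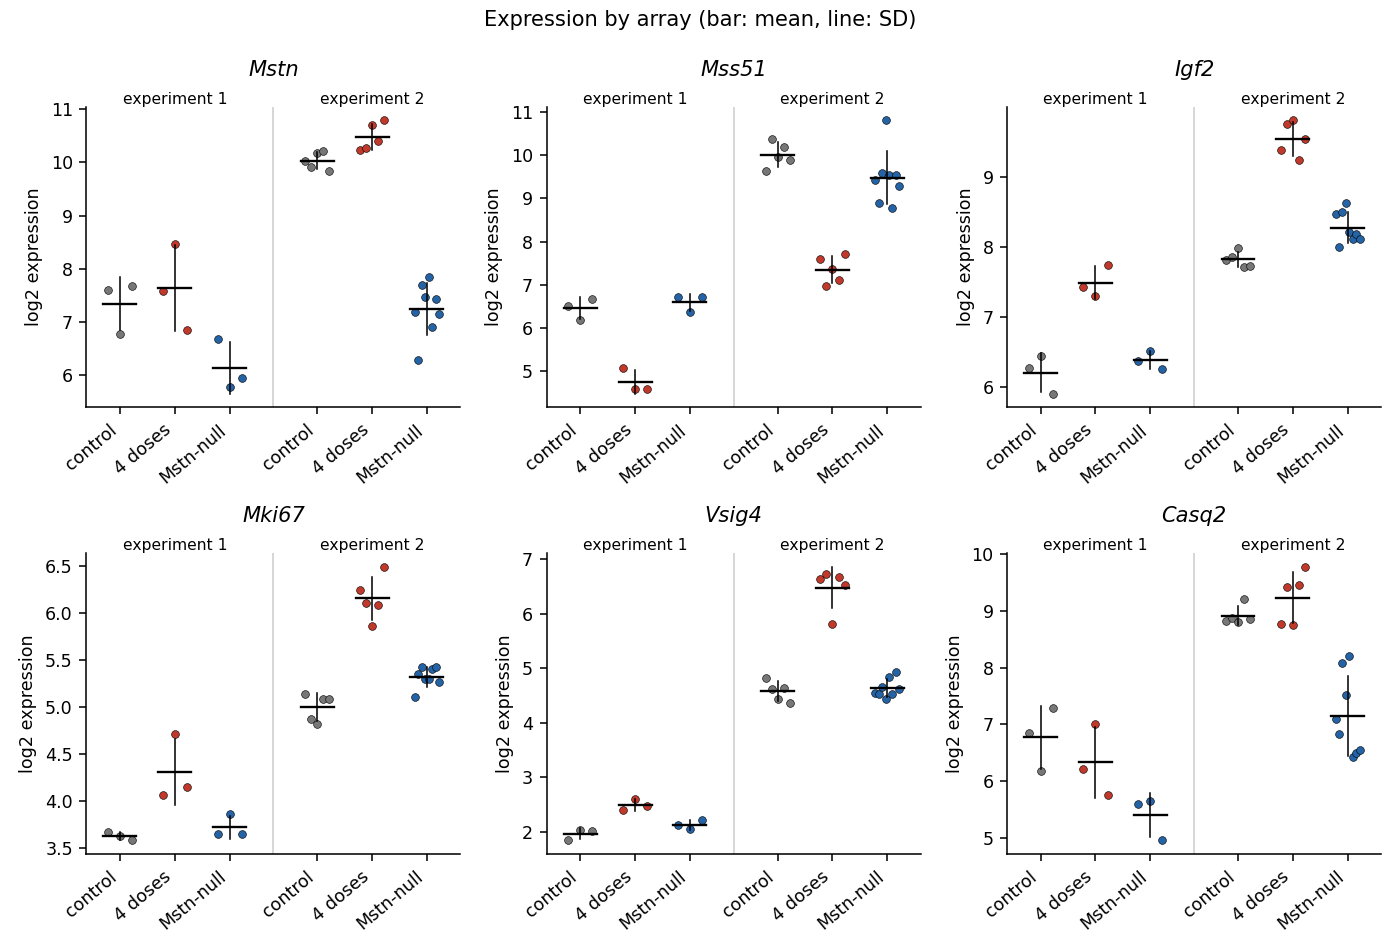
Log2 expression of Mstn, Mss51, Igf2, Mki67, Vsig4 and Casq2 on each array of the control, 4-dose and Mstn-null classes in both experiments; points are arrays, bars are means and vertical lines are SD. Mss51 lies lowest and Igf2, Mki67 and Vsig4 lie highest after 4 doses, while Mstn and Casq2 lie lowest in Mstn-null muscle.

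Among the genes lower after 4 doses, Mss51 showed the largest difference. Mss51 encodes a mitochondrial protein found mainly in skeletal muscle. Its level in experiment 1 was 5.07, 4.58 and 4.58 after 4 doses and 6.71, 6.37 and 6.70 in Mstn-null muscle. In experiment 2 it was 7.60, 6.96, 7.36, 7.11 and 7.70 after 4 doses and 8.77 to 10.81 (median 9.49) in Mstn-null muscle. Every 4-dose array was below every Mstn-null array, and the gene was 4.05-fold lower after 4 doses (log2 -2.02 ± 0.18, adjusted p = 2.33e-09). Against control Mss51 fell after 4 doses (-2.31 ± 0.20, adjusted p = 7.88e-10), and the Mstn-null class differed by -0.29 ± 0.18 (adjusted p = 0.2).

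Gpx3, a secreted glutathione peroxidase, was 7.57, 7.67 and 7.62 after 4 doses against 8.89, 8.50 and 8.07 in experiment 1, and 8.85, 8.93, 8.71, 8.79 and 9.01 against 9.72 to 10.86 in experiment 2. These groups did not overlap. Igfn1, an immunoglobulin-domain protein of the sarcomere, was 4.70, 4.55 and 4.96 against 5.76, 5.91 and 6.58 in experiment 1, and overlapped in experiment 2 (5.64 to 6.34 against 6.26 to 7.62). Nos1, the neuronal nitric oxide synthase held at the fibre membrane, did not overlap in either experiment, at 6.77 to 6.83 against 6.88 to 7.16 and at 7.73 to 8.04 against 8.41 to 9.43. The differences were -1.17 ± 0.15 for Gpx3, -1.23 ± 0.15 for Igfn1 and -0.81 ± 0.13 for Nos1 (adjusted p = 6.18e-06, 1.37e-06 and 0.000101). All 3 were lower than control after 4 doses, by -1.02, -0.97 and -0.74, and none was called in Mstn-null muscle, at 0.14, 0.26 and 0.07. The Nos1 difference was -0.17 in experiment 1 and -1.10 in experiment 2.

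In other genes on the low side it was the Mstn-null class that departed from the same controls. Naaladl2 was higher in Mstn-null muscle than in controls by 0.98 ± 0.11, Katnal2, a relative of the microtubule-severing katanins, by 0.85 ± 0.08, and Cntfr, the receptor for ciliary neurotrophic factor, by 0.68 ± 0.13. The 4-dose class differed from control by 0.03 ± 0.11, 0.13 ± 0.09 and -0.13 ± 0.14, none called. Between the classes Naaladl2 differed by -0.96 ± 0.11, Katnal2 by -0.72 ± 0.08 and Cntfr by -0.81 ± 0.13 (adjusted p = 2.65e-07, 3.32e-07 and 0.000127). None of these 3 genes overlapped between classes in either experiment, and all 3 lasted in both settings.

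Nnt, a mitochondrial enzyme that makes NADPH, and Abca1, a cholesterol exporter, leaned to opposite sides of control. Nnt was lower than control after 4 doses (-0.65 ± 0.17, adjusted p = 0.0257) and differed by 0.35 ± 0.16 in Mstn-null muscle (adjusted p = 0.0763). For Abca1 the values were -0.59 ± 0.15 (adjusted p = 0.0141) and 0.30 ± 0.14 (adjusted p = 0.0760). Between the classes Nnt differed by -0.99 ± 0.16 and Abca1 by -0.89 ± 0.14 (adjusted p = 9.32e-05 and 4.63e-05), and both lasted. Zfp36, which speeds the decay of inflammatory messenger RNAs, was lower after 4 doses by 0.89 on the log2 scale (-0.89 ± 0.15, adjusted p = 0.000144).

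Fasn (fatty acid synthase) was 6.78 to 7.46 after 4 doses against 6.92 to 9.42 in Mstn-null muscle of experiment 1, and 7.78 to 8.86 against 8.14 to 11.38 in experiment 2. The Mstn-null arrays spread widely and overlapped the 4-dose arrays. Fasn differed by -1.50 ± 0.40, Acaca (acetyl-CoA carboxylase) by -1.23 ± 0.31 and Acly (ATP citrate lyase) by -0.83 ± 0.27 (adjusted p = 0.00887, 0.00699 and 0.0269). None was called with the covariate or without the 4 narrowest Mstn-null arrays, and Acly was also not called without 4-dose replicate 4 or 5 of experiment 2. Of 15 adipocyte markers 2 were higher and 2 lower (beside 11.4% and 8.75% of all genes), with a median of -0.34. Their mean level, which includes Fasn itself, was 6.29 to 6.74 and 8.04 to 8.30 after 4 doses. In Mstn-null muscle it was 6.27 to 7.25 and 7.68 to 9.01. The part of this mean in the differences of Fasn, Acaca and Acly was not tested. Under quantile normalization 2 adipocyte markers were higher and 5 lower, and with the covariate none was called.

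Of 33 genes of muscle atrophy, FoxO and autophagy 9 were higher and 6 lower after 4 doses, beside 11.4% and 8.75% of all genes. The list's median was 0.05, and -0.13 under quantile normalization. With the covariate none was higher and 2 were lower. Under quantile normalization 5 were higher and 9 lower, beside 8.47% and 7.79% of all genes. Without 4-dose replicate 5 of experiment 2 the 15 calls became 8. The 2 lower with the covariate were Fbxo32, which encodes the atrophy ubiquitin ligase atrogin-1, and Klhl38, a kelch adaptor. Fbxo32 was 9.16, 9.26 and 9.07 against 9.41, 9.20 and 9.40 in experiment 1, and 10.44, 10.51, 9.72, 10.14 and 9.94 against 10.15 to 11.30 in experiment 2. The groups overlapped, with a difference of -0.46 ± 0.13 (adjusted p = 0.0157) that was not called without 4-dose replicate 5 of experiment 2. Klhl38 differed by -0.67 ± 0.14 (adjusted p = 0.00186). Trim63, the ligase MuRF1, differed by -0.27 ± 0.15 (adjusted p = 0.177), and was lower than control in both classes, by -0.87 ± 0.16 and -0.60 ± 0.15 (adjusted p = 0.000708 and 0.00215). The mitophagy receptor gene Bnip3 was higher by 0.55 ± 0.13 (adjusted p = 0.00420), not with the covariate.

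In the circadian clock 2 of 16 genes were higher and 3 lower, beside 11.4% and 8.75% of all genes. With the covariate the counts were 0 and 3, beside 1.1% and 0.878%. Under quantile normalization they were 0 and 4, beside 8.47% and 7.79%. Without 4-dose replicate 4 or 5 of experiment 2 the 5 calls became 3. Nr1d1, the repressor REV-ERB alpha, was lower after 4 doses by 0.77 on the log2 scale (-0.77 ± 0.12, adjusted p = 8.43e-05) without overlap in either experiment. Its activator Arntl (BMAL1) differed by -0.53 ± 0.13 (adjusted p = 0.00587) and Bhlhe40 by -0.40 ± 0.11 (adjusted p = 0.00991). The labels give no time of day of dissection.

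**Figure D3:**
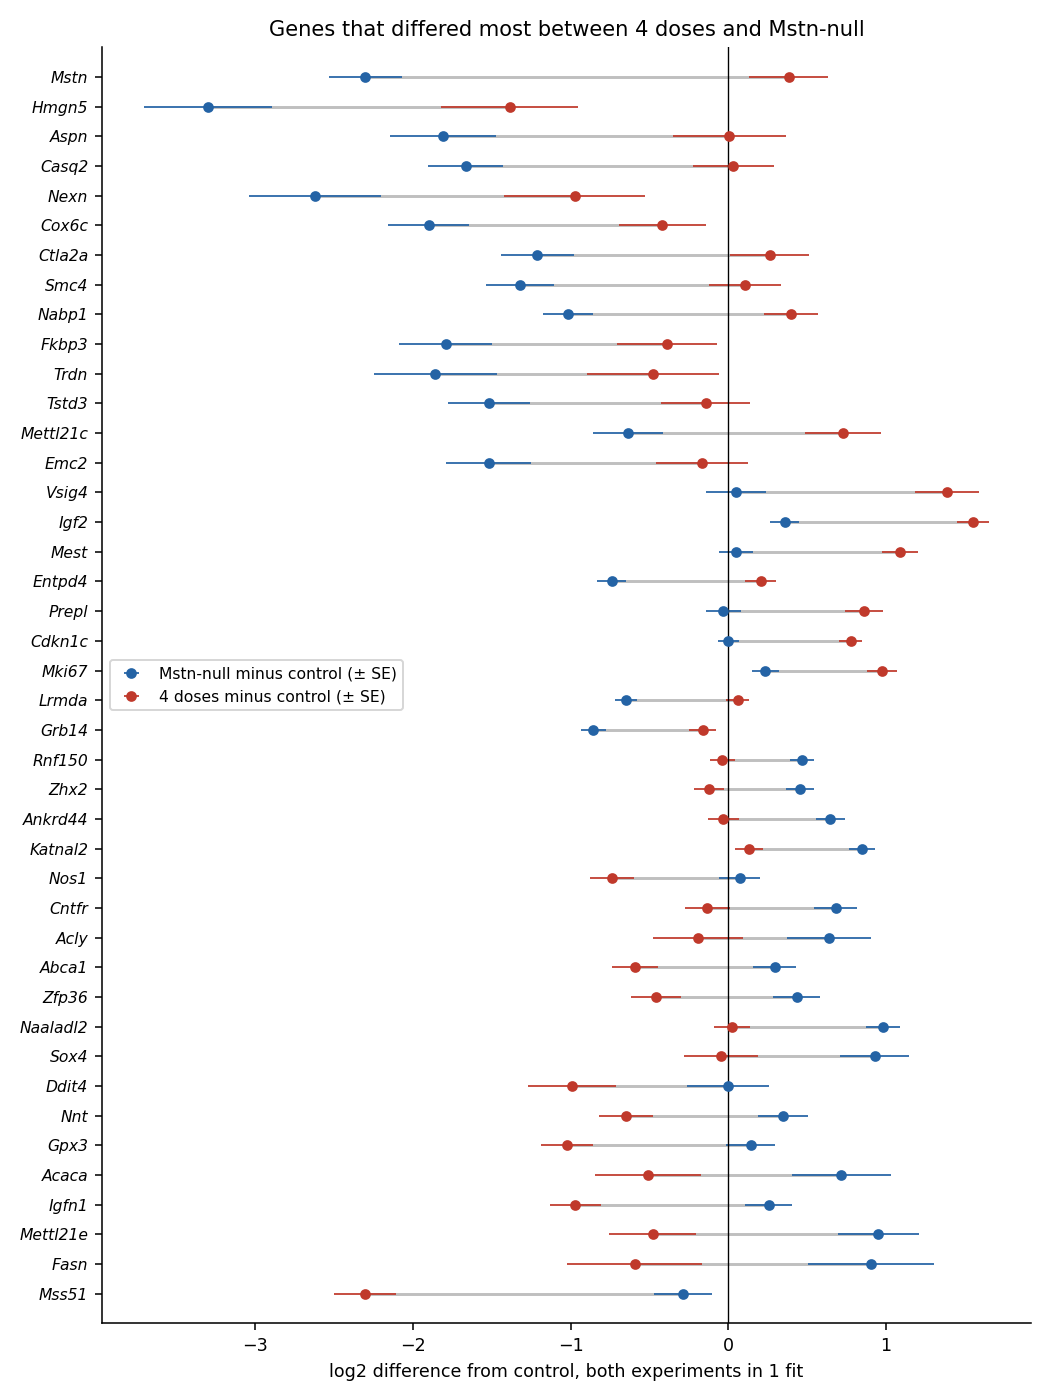
Log2 difference from control, with its standard error, of the Mstn-null class (blue) and the 4-dose class (red) for the genes that differed most between the classes, ordered by the difference; a grey line joins both values of a gene. Mss51, Gpx3 and Igfn1 lie left of control after 4 doses, Igf2, Mest and Mki67 lie right of it, and Casq2, Nabp1 and Smc4 lie left of it in Mstn-null muscle.

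Of 43 measured cell cycle genes 20 were higher and 1 lower, beside 11.4% and 8.75% of all genes. Their median was 0.21, beside -0.06 over all genes. With the covariate 9 were higher and none lower, beside 1.1% and 0.878% of all genes. Under quantile normalization the counts were 25 and none, beside 8.47% and 7.79%. Without the 4 narrowest Mstn-null arrays they were 17 and none, beside 2.77% and 1.38%. In 8 cell cycle genes every 4-dose array lay above every Mstn-null array in both experiments, beside 0.456% of all genes. Against control 24 were higher and none lower after 4 doses (background 1.91% higher and 1.23% lower), and 16 were higher and 4 lower in Mstn-null muscle (background 25.4% and 16.4%).

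Mki67, a nuclear protein of dividing cells, was 4.07, 4.71 and 4.14 after 4 doses and 3.65, 3.86 and 3.65 in Mstn-null muscle of experiment 1. In experiment 2 it was 6.24, 6.1, 5.86, 6.08 and 6.49 after 4 doses and 5.10 to 5.42 (median 5.32) in Mstn-null muscle. The classes did not overlap, and the difference was 0.74 ± 0.09 (adjusted p = 5.67e-07). Ccnd1 (cyclin D1), which drives entry into the cycle, differed by 0.81 ± 0.10, Top2a (topoisomerase II alpha), needed to separate chromosomes, by 0.79 ± 0.10, and Ccna2 (cyclin A2) by 0.68 ± 0.10 (adjusted p = 1.67e-06, 3.58e-06 and 1.94e-05). The mitotic motor Kif11 differed by 0.59 ± 0.09 (adjusted p = 4.63e-05). None of these 4 overlapped in either experiment, and all lasted in both settings. Against control Kif11 rose after 4 doses by 0.58 ± 0.10 and differed by -0.01 ± 0.09 in Mstn-null muscle, not called.

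Smc4, a condensin subunit, had another pattern. It was 3.45, 4.96 and 3.12 after 4 doses against 3.15, 3.17 and 3.05 in experiment 1, with overlap, and 6.57 to 7.34 against 4.54 to 6.24 in experiment 2, without. The difference of 1.42 ± 0.22 (adjusted p = 3.85e-05) sat beside -1.32 ± 0.22 for Mstn-null against control and 0.11 ± 0.23 for 4 doses against control.

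Promoters of such genes often carry a CCAAT box, bound by the factor NF-Y, and the motif TTTGAA, known as CHR. The 250 bases before the start of Mki67 and Top2a are shown because these are the list's leading members with an entry in the promoter table, with both motifs on either strand in capitals (RefSeq, GRCm38.p6, minus strand, chr7:135716380-135716629 and chr11:99024190-99024439):
Mki67: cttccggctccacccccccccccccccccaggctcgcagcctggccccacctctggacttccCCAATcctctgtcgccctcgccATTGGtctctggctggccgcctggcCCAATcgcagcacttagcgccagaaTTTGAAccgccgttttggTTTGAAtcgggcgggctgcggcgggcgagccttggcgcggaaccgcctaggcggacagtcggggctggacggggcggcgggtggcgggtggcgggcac
Top2a: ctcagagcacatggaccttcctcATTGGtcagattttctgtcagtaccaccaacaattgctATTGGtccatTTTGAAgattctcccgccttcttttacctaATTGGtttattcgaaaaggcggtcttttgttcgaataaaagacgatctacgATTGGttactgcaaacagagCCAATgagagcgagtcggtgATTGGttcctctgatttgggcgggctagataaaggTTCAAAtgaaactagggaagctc
The Mki67 stretch held 3 matches to CCAAT or its reverse complement ATTGG and 2 to TTTGAA or TTCAAA. In Top2a there were 6 and 2, and no match overlapped another. Of 15 cell cycle genes called higher with an entry, 14 held CCAAT (93.3%) and 4 held TTTGAA (26.7%). The other 20 cell cycle genes with an entry held them in 70.0% and 30%, and all 27025 genes of the table in 34.5% and 16.3%. A match describes letters only and is not a binding site.

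Satellite cell and myogenic genes, of which 26 were measured, included 5 higher and 1 lower, beside 11.4% and 8.75% of all genes. Their median difference was 0.0053. With the covariate 3 were higher, beside 1.1% of all genes. Under quantile normalization 3 were higher and 3 lower, beside 8.47% and 7.79%. The 6 calls became 3 without Mstn-null replicate 8 of experiment 2. Myf5, a factor of muscle precursor cells, was 4.67, 4.41 and 4.63 against 4.4, 4.17 and 4.21 in experiment 1, and 6.02, 5.85, 5.88, 5.91 and 6.22 against 5.40 to 5.83 in experiment 2. The classes did not overlap, with a difference of 0.33 ± 0.07 (adjusted p = 0.00226). Vcam1, an adhesion molecule of satellite and endothelial cells, was higher by 0.48 ± 0.07 (adjusted p = 4.63e-05). Mymk (myomaker), which fuses myoblasts, was higher by 0.24 ± 0.08 (adjusted p = 0.0318), a call lost without any 1 of 4-dose replicate 3 or 5 of experiment 2, Mstn-null replicate 3 of experiment 1, or Mstn-null replicate 2 or 8 of experiment 2. Myod1 differed by -0.33 ± 0.14 (adjusted p = 0.0774).

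Of 32 measured macrophage and myeloid markers 10 were higher and none lower, beside 11.4% and 8.75% of all genes. The list's median was 0.19, with 3 higher under the covariate and 8 under quantile normalization. In bulk muscle, more cells of a type and more RNA per cell cannot be told apart. The mean of the 32 markers was 4.53 to 4.67 after 4 doses against 4.30 to 4.46 in Mstn-null muscle of experiment 1, and 6.75 to 6.95 against 6.32 to 6.86 in experiment 2. The mean of the cell cycle genes was also higher after 4 doses, 4.25 against 4.11 in experiment 1 and 6.14 against 5.87 in experiment 2. Whether the means of these lists moved together across arrays was not tested, nor was the part of the markers in the cell cycle difference. Vsig4, a complement receptor of resident macrophages, was 2.39, 2.60 and 2.46 against 2.04 to 2.22 in experiment 1, and 6.65, 6.73, 5.81, 6.68 and 6.54 against 4.43 to 4.93 in experiment 2. The classes did not overlap in either experiment, but the levels in experiment 1 lay well below the array medians of 4.39 to 4.52. Vsig4 was higher by 1.34 ± 0.19 (adjusted p = 1.51e-05), by 0.36 in experiment 1 and 1.84 in experiment 2. Ccr2, the chemokine receptor of monocytes, was higher by 0.60 ± 0.09 without overlap (adjusted p = 6.6e-05), and Ctss (cathepsin S) by 0.84 ± 0.16 (adjusted p = 0.000542). None of these 3 was called for Mstn-null against control, and all 3 were called for 4 doses against control. Of the 32 markers 17 were higher and none lower than control after 4 doses (background 1.91% and 1.23%). In Mstn-null muscle 11 were higher than control and none lower (background 25.4% and 16.4%). Of 15 lymphocyte markers none was higher and 2 were lower, none was called under either of these settings, and the count was 0 or 1 without any 1 of 4-dose replicates 1 and 2 of experiment 1, 4-dose replicates 1, 2, 4 and 5 of experiment 2 or Mstn-null replicates 1, 6, 7 and 8 of experiment 2, and 5 without 4-dose replicate 3 of experiment 1.

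Endothelial markers gave 9 of 23 higher and none lower, beside 11.4% and 8.75% of all genes. The list's median was 0.23, with 3 higher under the covariate and 7 under quantile normalization. The mean of these markers was 6.07 to 6.42 after 4 doses against 5.80 to 5.96 in Mstn-null muscle of experiment 1. In experiment 2 it was 7.79 to 7.98 against 7.33 to 7.93. Against control 1 was higher and 11 lower in Mstn-null muscle (background 25.4% and 16.4%), and 2 were higher and 1 lower after 4 doses (background 1.91% and 1.23%). Pecam1, a junction protein of vessels, was higher by 0.68 ± 0.12 (adjusted p = 0.000195) and was lower than control in Mstn-null muscle by 0.59 on the log2 scale (-0.59 ± 0.12). Aplnr, the apelin receptor, differed the other way round. It was higher than control after 4 doses by 0.73 ± 0.12 and differed from it by 0.04 ± 0.11 in Mstn-null muscle, with 0.68 ± 0.11 between the classes (adjusted p = 9.51e-05) and no overlap in either experiment.

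Of 66 oxidative phosphorylation genes 48 were higher after 4 doses and none lower, with a median of 0.44 (0.24 in experiment 1 and 0.57 in experiment 2). Of 23 genes of fatty acid uptake and oxidation 22 were higher and none lower (median 0.58), and of 21 genes of the tricarboxylic acid cycle 17 were higher and 1 lower (median 0.53). With the covariate the higher counts were 9, 3 and 4, and under quantile normalization 28, 15 and 13. Of 31 proteasome subunits 20 were higher and none lower, with a median of 0.32, and 1 was higher with the covariate and 10 under quantile normalization. Against control none, 1 and 1 of the 3 metabolic lists were lower after 4 doses (background 1.23%), while 57, 23 and 19 were lower in Mstn-null muscle (background 16.4%). These counts against control are from the fit without the covariate, and Mstn-null arrays were on average narrower than control arrays.

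The mean of the oxidative phosphorylation list was 8.72 to 8.95 after 4 doses and 8.26 to 8.80 in Mstn-null muscle of experiment 1, and 10.56 to 10.71 against 9.53 to 10.58 in experiment 2. The ranges overlapped, and the Mstn-null range was the wider in both experiments. Cox6c, a subunit of cytochrome oxidase, was 12.29, 12.20, 12.14, 12.18 and 12.40 after 4 doses and 9.03 to 12.20 (median 10.49) in Mstn-null muscle of experiment 2, where the highest Mstn-null array reached the 4-dose arrays. It differed by 1.48 ± 0.26 (adjusted p = 0.000216), and by 1.03 with the covariate (adjusted p = 0.0203). The Rieske subunit Uqcrfs1 differed by 0.83 ± 0.14, the fumarase gene Fh1 by 0.60 ± 0.10 and the mitochondrial creatine kinase Ckmt2 by 0.82 ± 0.12 (adjusted p = 0.000209, 9.51e-05 and 3.81e-05), and all 3 lasted. The acyl-CoA dehydrogenases Acadl and Acadm differed by 0.86 ± 0.15 and 0.68 ± 0.12 (adjusted p = 0.000377 and 0.000379).

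**Figure D4:**
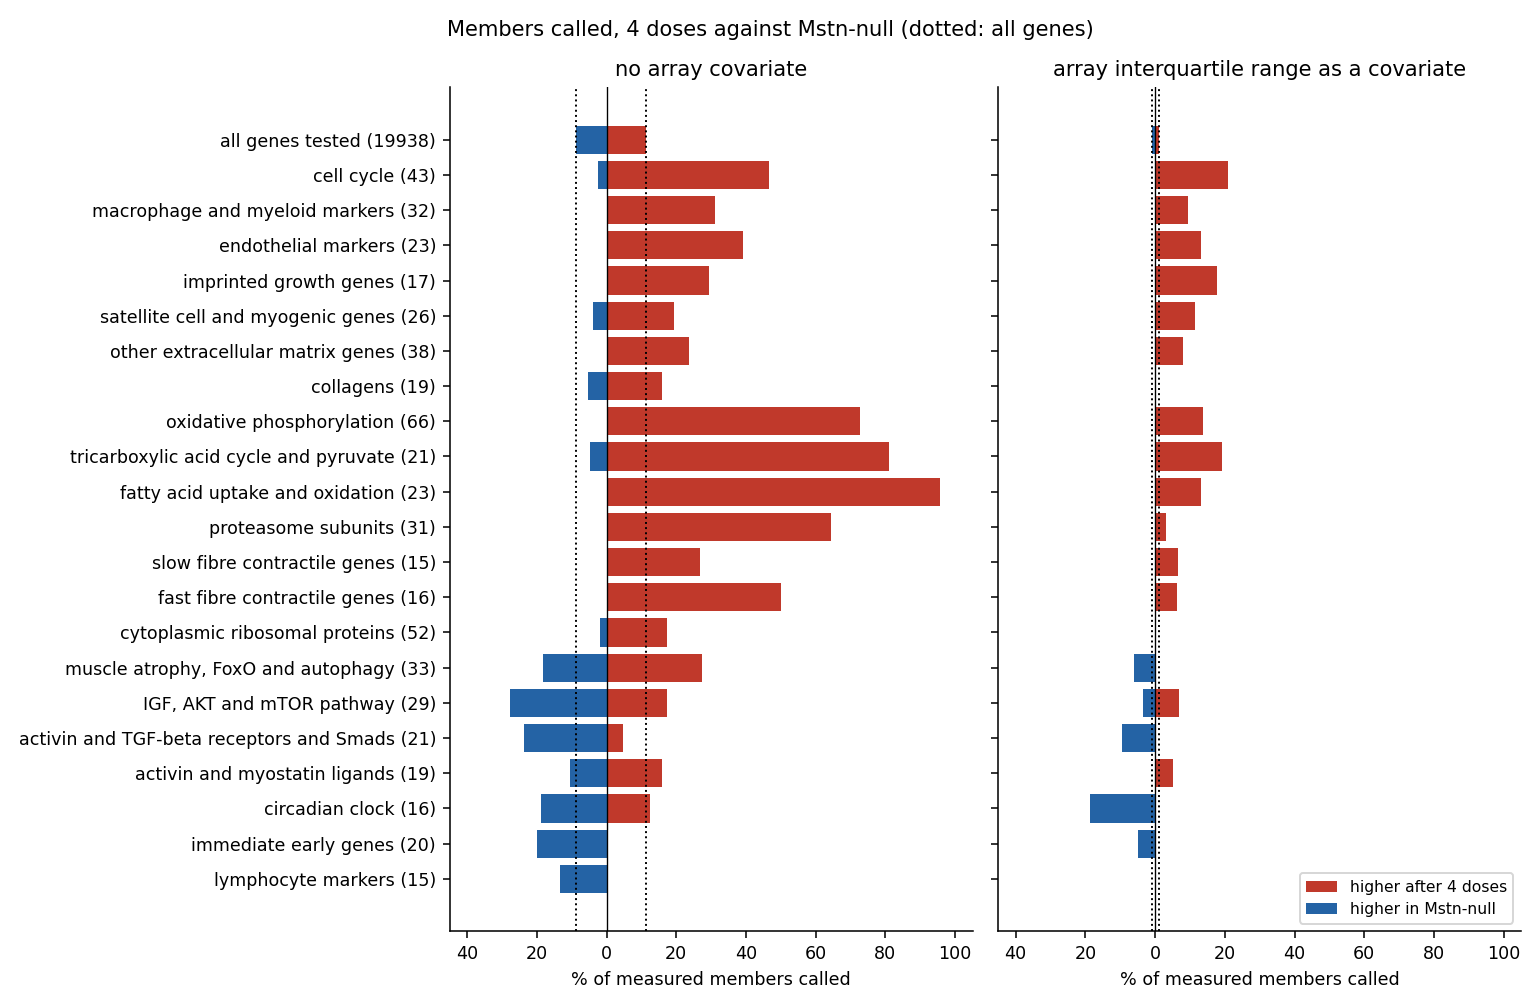
Share of measured members of each gene list called higher after 4 doses (red, right) or higher in Mstn-null muscle (blue, left), from values as deposited (left panel) and with the array's interquartile range as a covariate (right panel); dotted lines give the share of all genes, and the number of members is in brackets. The fatty acid list has 22 of 23 members on the right of the left panel and 3 in the right panel, and the cell cycle list has 20 and 9 of 43.

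Slow fibre contractile genes were lower than control in both classes, with 14 of 15 lower in Mstn-null muscle (median -2.0, background 16.4%) and 10 of 15 after 4 doses (median -1.39, background 1.23%). Between the classes 4 were higher after 4 doses and none lower, with a median of 0.59 that was 0.00 with the covariate and 0.13 without the 4 narrowest Mstn-null arrays. The 4 calls were 4 under quantile normalization, 1 with the covariate and 2 without 4-dose replicate 5 of experiment 2. Casq2, the calcium-storing calsequestrin of slow and cardiac fibres, was 6.22, 7.01 and 5.76 against 5.60, 5.65 and 4.96 in experiment 1, and 8.77, 9.42, 8.75, 9.45 and 9.77 against 6.42 to 8.21 (median 6.96) in experiment 2. It did not overlap, and its difference of 1.70 ± 0.24 (adjusted p = 1.51e-05) lasted. Ankrd2, a stretch-responsive protein, differed by 1.30 ± 0.31 and Myoz2 (calsarcin) by 1.21 ± 0.36 (adjusted p = 0.00453 and 0.0189), but neither was called in either setting, and Myoz2 was not called without 4-dose replicate 5 of experiment 2. Myl2, the slow myosin light chain, differed by 1.05 ± 0.49, not called (adjusted p = 0.117). Of 16 fast fibre genes 8 were higher and none lower, with a median of 0.17 that was 0.02 under quantile normalization. With the covariate 1 was higher, and under quantile normalization 1 was higher and 1 lower.

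Extracellular matrix genes other than collagens gave 9 of 38 higher and none lower, beside 11.4% and 8.75% of all genes. With the covariate 3 were higher, and under quantile normalization 9 were higher and 1 lower. Of 19 collagens 3 were higher and 1 lower, beside the same shares of all genes. None was called with the covariate, and 2 were lower under quantile normalization. The 4 collagen calls became 1 without 4-dose replicate 1 or 4 of experiment 2 and 0 without replicate 5. Sparc, a collagen-binding protein, was 9.37, 9.48 and 9.32 against 8.56, 9.02 and 8.79 in experiment 1, and 11.02, 11.17, 11.27, 11.35 and 11.34 against 10.02 to 10.99 in experiment 2, without overlap. It was higher by 0.63 ± 0.11 (adjusted p = 0.000243). The small proteoglycans Aspn (asporin) and Lum (lumican) were higher by 1.82 ± 0.34 and 1.14 ± 0.21 (adjusted p = 0.000483 and 0.000402), and both lasted. Aspn was lower than control in Mstn-null muscle (-1.81 ± 0.34, adjusted p = 0.000132) and differed by 0.01 ± 0.36 after 4 doses, while Lum differed by -0.42 ± 0.21 and 0.72 ± 0.22, neither called.

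Other genes with a large difference fell outside these groups. Prepl, a relative of prolyl endopeptidase, was higher after 4 doses by 0.89 ± 0.11 (adjusted p = 2.05e-06), with 0.86 ± 0.12 against control after 4 doses and -0.03 ± 0.11 in Mstn-null muscle. Oaz2, an inhibitor of polyamine synthesis, was higher by 0.93 ± 0.13 (adjusted p = 2.04e-05) without overlap in either experiment, and Lrmda by 0.71 ± 0.07 (adjusted p = 1.57e-08). Entpd4 was higher by 0.94 ± 0.09 (adjusted p = 7.93e-09) and Ctla2a by 1.47 ± 0.23 (adjusted p = 7.35e-05), but each has a near-identical copy whose signal the probes may share. Hmgn5, a nucleosome-binding protein, had one of the largest differences, 1.91 ± 0.41 (adjusted p = 0.00168). It was 2.39, 3.30 and 2.20 after 4 doses against 2.50, 1.99 and 2.07 in experiment 1, where the classes overlapped, and 7.0 to 8.25 against 3.73 to 7.38 in experiment 2. It was not called with the covariate (adjusted p = 0.0933).

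Genes next to Mstn were looked at separately. Of the 40 tested genes nearest to Mstn by gene order in RefSeq GRCm38.p6, 20 on each side, 16 were called (40%, beside 20.2% of all genes). Among the 40, 12 were higher after 4 doses and 4 lower, beside 11.4% and 8.75% of all genes. With the covariate 3 were called (Nabp1, Mettl21e and Ankrd44), beside 1.98% of all genes. Calls under quantile normalization were not counted for this group. Nabp1, which binds single-stranded DNA, was 5.91, 6.55 and 5.65 against 5.07, 5.28 and 5.10 in experiment 1, and 9.06, 8.29, 8.14, 8.64 and 8.41 against 6.11 to 7.46 in experiment 2, without overlap. It differed by 1.42 ± 0.16 (adjusted p = 2.65e-07). Ankrd44, a regulatory subunit of a protein phosphatase, differed by -0.68 ± 0.09 without overlap (adjusted p = 9.62e-06), and Mettl21e, a muscle lysine methyltransferase, by -1.43 ± 0.26 (adjusted p = 0.000369). Against control these 3 genes differed in Mstn-null muscle by -1.02, 0.65 and 0.95, all called, and after 4 doses by 0.40, -0.03 and -0.48, none called.

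**Figure D5:**
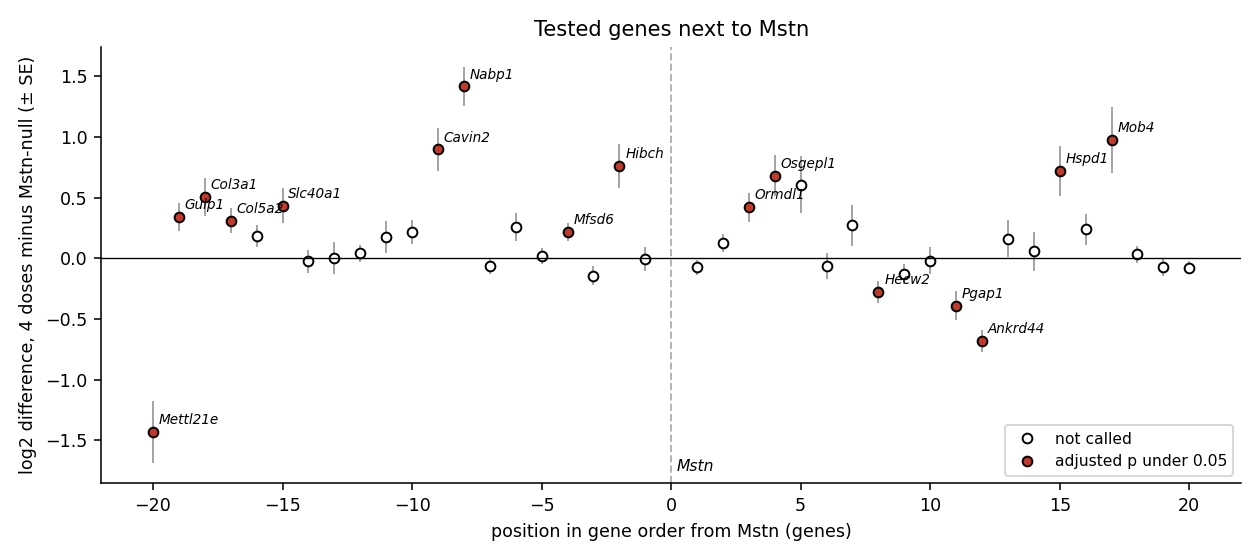
Log2 difference, 4 doses minus Mstn-null, with its standard error, of the 40 tested genes nearest to Mstn, by their position in gene order; filled points were called. Of the 16 called genes 12 lie above 0, led by Nabp1 at 1.42, and 4 lie below, led by Mettl21e at -1.43.

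The experiments were compared directly. Of the 4019 called genes 3391 (84.4%) had a difference of the same sign in both. These genes were called from both experiments together, which favours the same sign, so the share is no test of replication. No gene's difference passed the limma test between experiments (0 of 19938 with adjusted p under 0.05, 3103 at an unadjusted p under 0.05). On simulated arrays, which had independent noise and no width effect, that test found 13% of differences of 0.5 and 85% of differences of 1. Experiment 1 alone gave 3 called genes and experiment 2 alone 5716.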

How the data were processed

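Quadriceps RNA was measured on 35 arrays in 2 experiments. The deposited values are log2 expression levels per probe set as the authors normalized them; the base is read from their range. The submitters' processing notes name RMA, limma 3.4.4 and R 2.11.1 with no role. Of 35556 probe sets, 21789 carried exactly 1 gene symbol (1621 several, 12146 none), and 21698 of these matched RefSeq. For the 999 genes with more than 1 probe set, the one with the highest mean was used, which left 19938 genes.

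A linear model with class and experiment as terms was fitted to all 35 arrays in limma (version 3.58.1, under R 4.3.3), with moderated variances and an adjusted p of 0.05 as the threshold. Summaries used Python 3.11.15, pandas 2.3.3 and numpy 2.4.6. On simulated arrays the fit called 89% of genes changed by 0.5 and 100% of genes changed by 1 on the log2 scale. The simulated noise was independent between genes and arrays and held no width effect, unlike the real arrays, so these shares may not carry over. Replicate numbers did not pair the arrays (correlations of same-numbered deviations from -0.45 to 0.361).

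Named genes were Mstn, the 15 largest differences in each direction among called genes with the same sign in both experiments, the 10 with the smallest p in each direction with the covariate, up to 5 members of each list with the smallest p, and members that a list's description needs. Clone and model symbols were not named. The genes and lists were chosen with earlier results of these data known. Alternatives changed the normalization, the arrays, the covariates, the filter on dim genes and the choice of probe set.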

Additional observations from a re-analysis of the deposited data

Results flagged for a closer look

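In 12 of 184 groups tested 1 array stood apart from the other arrays of its group by Dixon's test, which by chance marks about 5% of groups. Among 4-dose arrays of experiment 2, replicate 3 was lowest for Id2 (6.364) and Vsig4 (5.814), and replicate 2 was lowest for Lrmda (6.43). Among Mstn-null arrays of experiment 2, replicate 5 was highest for Ctss (8.354), Lum (8.594), Hmgn5 (7.375) and Ctla2a (6.501) and lowest for Zfp36 (7.539). Replicate 4 was highest for Mss51 (10.81), replicate 6 for Mymk (7.289) and replicate 1 for Aplnr (7.232), and replicate 2 was lowest for Kif11 (4.267).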

How the results depend on the processing

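The 4019 called genes became 394 with the array's interquartile range as a covariate, 1707 from the 19 arrays alone and 3 from experiment 1 alone. Without the 4 narrowest Mstn-null arrays of experiment 2 there were 827, and without the 4-dose arrays numbered 3 of both experiments 7826, both chosen after seeing the data. Leaving out 1 array at a time gave 2282 (without 4-dose replicate 5 of experiment 2) to 6494 (without 4-dose replicate 3 of experiment 1), with 2338 without 4-dose replicate 1 of experiment 2. Experiment 2 alone, quantile normalization, median centring, a filter on dim genes, row means, array weights and a trended robust fit stayed within 1.5 times the count. With the replicate number as a block, which the labels do not tie to a shared mouse or day, 1212 genes were called.

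The count of genes that differed between experiments, 0, became 1 from the 19 arrays alone, 2 with the replicate block, and 0 to 697 on leaving out 1 array, with 697 without Mstn-null replicate 5 of experiment 2 and 186 without 4-dose replicate 2 of experiment 1. The difference in interquartile range, 0.174, was 0.138 without 4-dose replicate 1 and 0.152 without replicate 5 of experiment 2, and no longer passed in either case. The cause was not tested.

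Of 46 list medians 11 changed sign under quantile normalization, 7 with the covariate and 13 in experiment 1 alone. Those named here moved by more than the spread between arrays, in lists with at least 3 called members. Under quantile normalization these were glycolysis (-0.0593), atrophy (-0.13), ligands (0.0087), satellite cell genes (-0.0438), other matrix genes (-0.03), fibro-adipogenic markers (-0.0241), ribosomal proteins (-0.0738) and heat shock genes (-0.0538). With the covariate they were ligands (0.0079), antagonists (0.0098) and cell cycle inhibitors (-0.0092), the last also without the 4 narrowest arrays (-0.0406). In experiment 1 alone they were ligands (0.054), antagonists (0.0122), Smad and BMP targets (0.029), tendon (0.15) and smooth muscle (0.0748). Among brighter genes, where no lymphocyte marker was left, the ligand median was 0.21, and with the replicate block the imprinted median was -0.0147. In experiment 1 alone Tfam (-0.17), Rheb (-0.0085), Wfikkn2 (0.0803), Osr1 (0.12), Azin1 (-0.10), Nampt (-0.0237) and Hsp90aa1 (-0.0051) changed sign. Genes near background were not separated from dim genes, since the values hold no background measure.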

Other observations

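Further gene groups are listed here. Over all genes 11.4% were higher and 8.75% lower, with the covariate 1.1% and 0.878%, and under quantile normalization 8.47% and 7.79%. Of 52 cytoplasmic ribosomal proteins 9 were higher after 4 doses and 1 lower, none with the covariate, and 3 and 4 under quantile normalization. The 10 calls became 4 to 6 without any 1 of 4-dose replicates 1, 2, 4 and 5 or Mstn-null replicates 1, 2, 6 and 8 of experiment 2. Of 20 immediate early genes none was higher and 4 were lower, and of 22 chemokines and their receptors 5 were higher and none lower, with 1 in each list called under the covariate. Without 4-dose replicate 5 of experiment 2 the immediate early calls became 1. Of 20 genes of the neuromuscular junction and of denervation 4 were higher and 4 lower, and 1 and 2 with the covariate. The 8 calls became 5 without 4-dose replicate 1 or 2 of experiment 2.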
